A study of Canis lupus familiaris with 36 samples.

Results

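SLC66A2 (ENSCAFG00000000009) and ATP9B (ENSCAFG00000000012) are 2 of the 30424 genes in a table of read counts from CLBL-1, a cell line grown from a canine B-cell lymphoma. They were chosen by their identifiers, with earlier results of these counts known, so their own values are given as a description and without a test. RNA was sequenced from cells incubated with the solvent DMSO alone, with 1 µM Ibrutinib (Ibr), with 5 µM AS-605240 (AS) or with both inhibitors at those doses (Ibr + AS), each for 24, 48 or 72 h. Each of the 12 groups held 3 libraries, from cells of passages p121, p126 and p128, which are called replicates 1, 2 and 3. Ibrutinib blocks Bruton's tyrosine kinase, which passes on signals of the B-cell receptor, and AS-605240 blocks the gamma form of phosphoinositide 3-kinase. Both inhibitors were dissolved in DMSO, so all groups carried the solvent. The study matched the DMSO of the control to that of the combination. Whether the groups with a single inhibitor were matched too is not stated. The replicates were passages of 1 cell line, so errors and p-values measure the spread between cultures of that line and not between dogs. The study discarded a library as an outlier. Accordingly, Ibr 72 h replicate 3 was left out of the tests, and its levels are given separately.

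Membranes of the Golgi and of endosomes keep some lipids mainly on the leaflet that faces the cytosol. ATP9B is a P4-ATPase, a family of pumps most of which flip phospholipids from one leaflet to the other, and it resides at the trans-Golgi network. SLC66A2, also named PQLC1, is a membrane protein with PQ-loop motifs. Its relative in yeast, Any1 (also Cfs1), was found because yeast that lack it can live without Neo1, and Neo1 is the yeast relative of ATP9A and ATP9B. In yeast, Neo1 works with Mon2 and Dop1 in transport from endosomes back to the Golgi, and MON2 is the dog gene for one of these partners. This background comes mostly from yeast and human cells and was not measured here.

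Depth ranged from 9941919 to 14703839 reads on genes. Levels are given as CPM, the reads on a gene relative to the size of the library, after TMM scaling, which corrects library totals for differences in composition. SLC66A2 was read 414 to 1236 times per library and ATP9B 410 to 781 times, so that counting of reads alone gives an error of 4.91% and 4.94% of the value at the lowest counts. CPM does not correct for gene length, and levels of the genes were therefore not compared with each other. Of 6 genes listed as B-cell markers, 5 were read in every library, among them TNFRSF13C, the receptor for the survival factor BAFF, and NFAM1 had at most 1 read. The rest were DLA-DRA, DLA-DQA1, DLA-DMA and DLA-DOA, class II histocompatibility genes that are not particular to B cells. Of 9 genes that mark other cell types, 7 had at most 3 reads in any library. The exceptions were PMEL, at 6 to 30 reads, and LYZ, the gene for lysozyme, at 809 to 3665 reads. LYZ varied with treatment, from 65.4 to 114 CPM in DMSO libraries, 81.2 to 98.3 CPM in AS, 112 to 163 CPM in Ibr and 136 to 314 CPM in Ibr + AS. The summed level of the 9 genes was 67.3 to 116 CPM in DMSO, 82.8 to 99.9 CPM in AS, 113 to 164 CPM in Ibr and 137 to 316 CPM in Ibr + AS, and its part in the changes described here was not tested. In bulk RNA, fewer cells of a type and less RNA per cell cannot be told apart.

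SLC66A2 was highest under Ibr + AS at every incubation time. At 24 h it was at 92.0, 84.5 and 99.4 CPM under Ibr + AS (passages p121, p126 and p128) and at 45.8, 46.2 and 49.0 CPM in DMSO. At 48 h the values were 79.2, 92.1 and 79.9 CPM under Ibr + AS and 42.5, 47.5 and 46.3 CPM in DMSO. At 72 h they were 70.1, 73.6 and 83.3 CPM under Ibr + AS and 36.4, 38.7 and 38.9 CPM in DMSO. At each incubation time every Ibr + AS library lay above every DMSO library. Over all genes tested, 21.3% were likewise higher without overlap under Ibr + AS than in DMSO at 24 h, 20% at 48 h and 16.5% at 72 h. Over all times, the lowest Ibr + AS library (70.1 CPM) lay just above the highest single-inhibitor library, Ibr 48 h in passage p128 (69.4 CPM). The share of all genes separated in this way is not given here.

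Against DMSO of the same incubation time, SLC66A2 was 1.93-fold higher under Ibr + AS at 24 h (log2 FC 0.95 ± 0.096, standard error of the fit), 1.85-fold at 48 h (0.89 ± 0.096) and 2.00-fold at 72 h (1.00 ± 0.098). These log2 FC stood at percentiles 92.5, 92.9 and 95.9 among 10785 of the 18670 genes tested, namely those that averaged 1 CPM or more. Within passages the log2 difference ranged from 0.79 in passage p128 at 48 h to 1.10 in passage p128 at 72 h. The libraries appear to have been sequenced in 2 runs, which is an inference from sample-sheet numbers, and apart from passage p126 at 48 h both sides of each of these differences lay in the same run. For passage p126 at 48 h, whose DMSO and Ibr + AS libraries lay in different runs, the difference was 0.95.

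**Figure D1:**
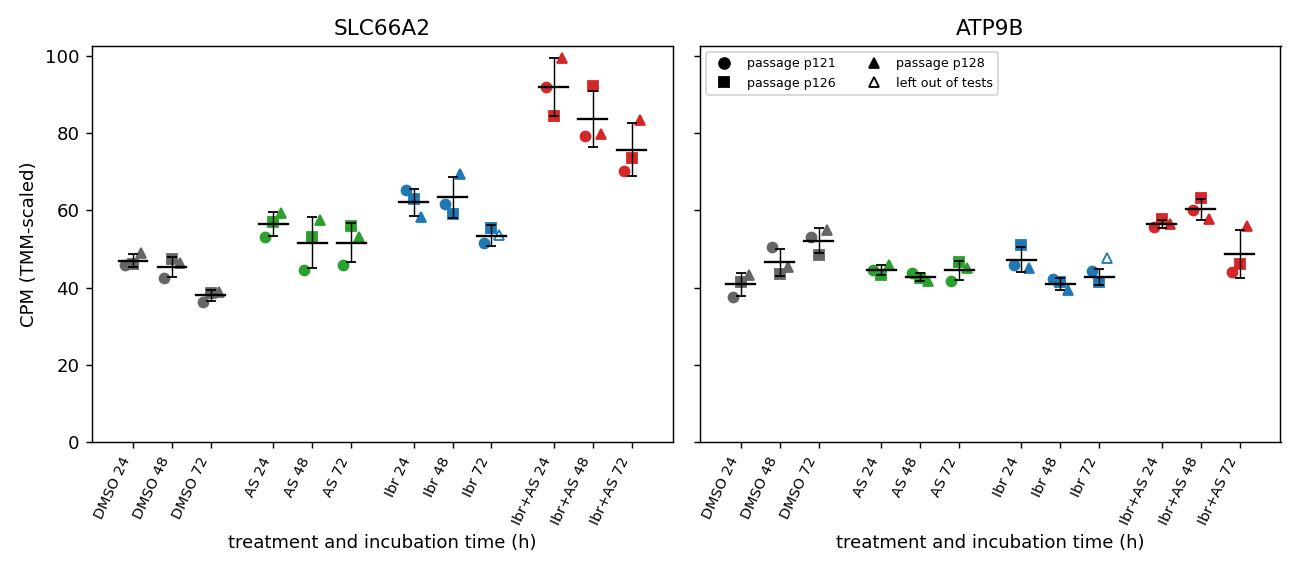
Level of SLC66A2 and of ATP9B in CPM (vertical axis) in each library, by treatment and incubation time in hours (horizontal axis); symbols give the passage, horizontal lines the mean and bars 1 SD of the libraries in the fit, and the open symbol is the Ibr 72 h library left out. SLC66A2 lies between 70.1 and 99.4 CPM under Ibr + AS and between 36.4 and 49.0 CPM in DMSO, while ATP9B in DMSO is higher at later times and over all groups is highest under Ibr + AS at 48 h.

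Each inhibitor alone was accompanied by a smaller difference in SLC66A2. Under Ibr it was at 65.2, 63.0 and 58.3 CPM at 24 h, at 61.8, 59.1 and 69.4 CPM at 48 h, and at 51.6 and 55.4 CPM at 72 h. The log2 FC of Ibr against DMSO was 0.39 ± 0.096 at 24 h, 0.50 ± 0.097 at 48 h and 0.53 ± 0.11 at 72 h. No Ibr library overlapped with the DMSO libraries of its incubation time, as for 15.2%, 11% and 20.4% of all genes at the 3 times, and at 72 h this rests on 2 Ibr libraries. The left-out Ibr 72 h library held SLC66A2 at 53.6 CPM, between the other 2 libraries of its group.

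Under AS, SLC66A2 was at 53.1, 56.9 and 59.4 CPM at 24 h, at 44.5, 53.1 and 57.5 CPM at 48 h, and at 46.0, 55.9 and 53.1 CPM at 72 h. The log2 FC of AS against DMSO was 0.25 ± 0.097 at 24 h, 0.20 ± 0.097 at 48 h and 0.46 ± 0.098 at 72 h. AS and DMSO libraries did not overlap at 24 h and 72 h, where 12.8% and 12.5% of all genes were higher in this way, but they did at 48 h, when AS in passage p121 lay at 44.5 CPM and DMSO in passage p126 at 47.5 CPM. In all 3 passages AS was nevertheless the higher at 48 h, by 0.07, 0.16 and 0.31 on the log2 scale.

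Compared with Ibr alone, SLC66A2 under Ibr + AS was higher by a log2 FC of 0.56 ± 0.095 at 24 h, by 0.39 ± 0.095 at 48 h and by 0.47 ± 0.11 at 72 h. Compared with AS alone, the log2 FC was 0.70 ± 0.095, 0.68 ± 0.096 and 0.54 ± 0.096. The sum of the single log2 FC can be set against that of the combination, and the difference between them is called the departure from additivity. For SLC66A2 it was 0.30 ± 0.14 at 24 h, 0.19 ± 0.14 at 48 h and 0.01 ± 0.15 at 72 h, so that at 72 h the log2 FC of the combination was close to the sum of those of its parts. The value at 48 h differed between passages, with 0.29 in passage p121, 0.48 in passage p126, whose libraries came from both runs, and -0.11 in passage p128, and without passage p128 (replicate 3) it was 0.40. These comparisons share their DMSO libraries.

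Over incubation time, the level of SLC66A2 was lower at 72 h than at 24 h in every treatment. In passage p126 the libraries of 24 h and 72 h lay in different inferred runs in every treatment. In DMSO the mean was 47.0 ± 1.76 CPM (SD, n = 3) at 24 h, 45.4 ± 2.64 at 48 h and 38.0 ± 1.42 at 72 h. The DMSO libraries of 72 h all lay below those of 24 h, as for 20.6% of the genes tested in DMSO, and the log2 FC was -0.34 ± 0.088. Under Ibr + AS the mean went from 92.0 ± 7.45 CPM (n = 3) at 24 h through 83.7 ± 7.26 to 75.7 ± 6.85, a log2 FC of -0.28 ± 0.094 between 72 h and 24 h. Since DMSO and Ibr + AS both ended lower, the fold change against DMSO at 72 h was close to that at 24 h. The corresponding log2 FC was -0.20 ± 0.11 under Ibr and -0.13 ± 0.097 under AS.

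Ranked by group mean, SLC66A2 was highest under Ibr + AS at 24, 48 and 72 h, followed by Ibr at 48 h (63.4 ± 5.34 CPM, n = 3) and 24 h (62.2 ± 3.48 CPM, n = 3). AS 24 h, Ibr 72 h, AS 48 h and AS 72 h came next, with means from 56.5 down to 51.6 CPM, and the DMSO groups stood last. Of the 11 pairs of neighbours in this order, 9 overlapped. The gaps without overlap lay between Ibr + AS 72 h and Ibr 48 h and between DMSO 48 h and DMSO 72 h.

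ATP9B varied over a smaller range, from 37.7 to 63.1 CPM, a ratio of 1.67 against 2.74 for SLC66A2. In DMSO it was at 37.7, 41.5 and 43.3 CPM at 24 h, at 50.5, 43.6 and 45.4 CPM at 48 h and at 53.2, 48.5 and 54.9 CPM at 72 h. Libraries of the later times all lay above those of 24 h, as for 12.9% of genes at 48 h and 24.2% at 72 h. For 48 h the gap was narrow (43.6 against 43.3 CPM) and was lost with other scaling. With RLE factors, DMSO 48 h in passage p126 (43.2) lay below DMSO 24 h in passage p128 (43.6). With library totals the same libraries lay at 44.4 and 45.1. The log2 FC against 24 h was 0.18 ± 0.088 at 48 h and 0.32 ± 0.087 at 72 h. In DMSO, ATP9B was thus higher at 72 h than at 24 h and SLC66A2 lower. In passage p126 the DMSO libraries of 24 h and 72 h lay in different inferred runs. There the log2 difference was 0.22 for ATP9B and -0.26 for SLC66A2.

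Under Ibr + AS, ATP9B was at 55.6, 57.7 and 56.5 CPM at 24 h, at 60.0, 63.1 and 57.7 CPM at 48 h, and at 44.0, 46.2 and 55.9 CPM at 72 h. At 24 h and 48 h all these libraries lay above the DMSO libraries of the same time, as for 21.3% and 20% of all genes, and at 72 h they overlapped with them. The log2 FC against DMSO was 0.45 ± 0.098 at 24 h, 0.38 ± 0.098 at 48 h and -0.10 ± 0.098 at 72 h. The passages differed in sign at 72 h, since ATP9B was lower under Ibr + AS in passages p121 and p126 and at 55.9 against 54.9 CPM in passage p128.

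With a single inhibitor, ATP9B was above its DMSO level at 24 h and below it at 48 h and 72 h on average. Under Ibr it was at 45.8, 51.0 and 45.0 CPM at 24 h, at 42.2, 41.4 and 39.3 CPM at 48 h and at 44.2 and 41.4 CPM at 72 h. The log2 FC of Ibr against DMSO was 0.20 ± 0.099 at 24 h, -0.17 ± 0.10 at 48 h and -0.27 ± 0.11 at 72 h. The Ibr libraries lay above all DMSO libraries at 24 h, as for 15.2% of all genes, and below all of them at 48 h and 72 h, where 11.3% and 21.9% of all genes were lower in this way. With library totals instead of TMM scaling, Ibr and DMSO overlapped at 24 h (43.8 against 45.1 in passage p128). The left-out Ibr 72 h library held ATP9B at 47.6 CPM, above the other 2 of its group and below all DMSO libraries of 72 h.

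Under AS, ATP9B was at 44.6, 43.3 and 45.8 CPM at 24 h, at 43.8, 42.4 and 41.8 CPM at 48 h and at 41.8, 46.7 and 45.0 CPM at 72 h. The log2 FC of AS against DMSO was 0.12 ± 0.10 at 24 h, -0.11 ± 0.10 at 48 h and -0.21 ± 0.099 at 72 h. AS libraries lay just above those of DMSO at 24 h, the nearest being at 43.3 CPM in both groups, and 12.8% of all genes were higher without overlap. With RLE factors the 24 h libraries overlapped (43.2 under AS in passage p126 against 43.6 in DMSO in passage p128). With library totals they did so too (43.8 against 45.1). AS libraries overlapped with those of DMSO at 48 h and lay below them at 72 h, where 13.9% of all genes did. The mean level of ATP9B itself under AS was 44.6 ± 1.25, 42.7 ± 1.02 and 44.5 ± 2.48 CPM at the 3 times (n = 3 each), while the mean in DMSO was 40.8 ± 2.88 CPM at 24 h and 52.2 ± 3.33 CPM at 72 h (n = 3 each).

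The departure from additivity of ATP9B was 0.13 ± 0.14 at 24 h, 0.65 ± 0.14 at 48 h and 0.39 ± 0.15 at 72 h. Both single log2 FC were below 0 at 48 h, and that of the combination was above it. At 72 h the single inhibitors and the combination were all below DMSO on average, the combination by less. Against Ibr, the log2 FC of Ibr + AS was 0.25 at 24 h, then 0.54 at 48 h and 0.18 at 72 h, and against AS by 0.33, 0.48 and 0.12, with standard errors between 0.098 and 0.11.

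**Figure D2:**
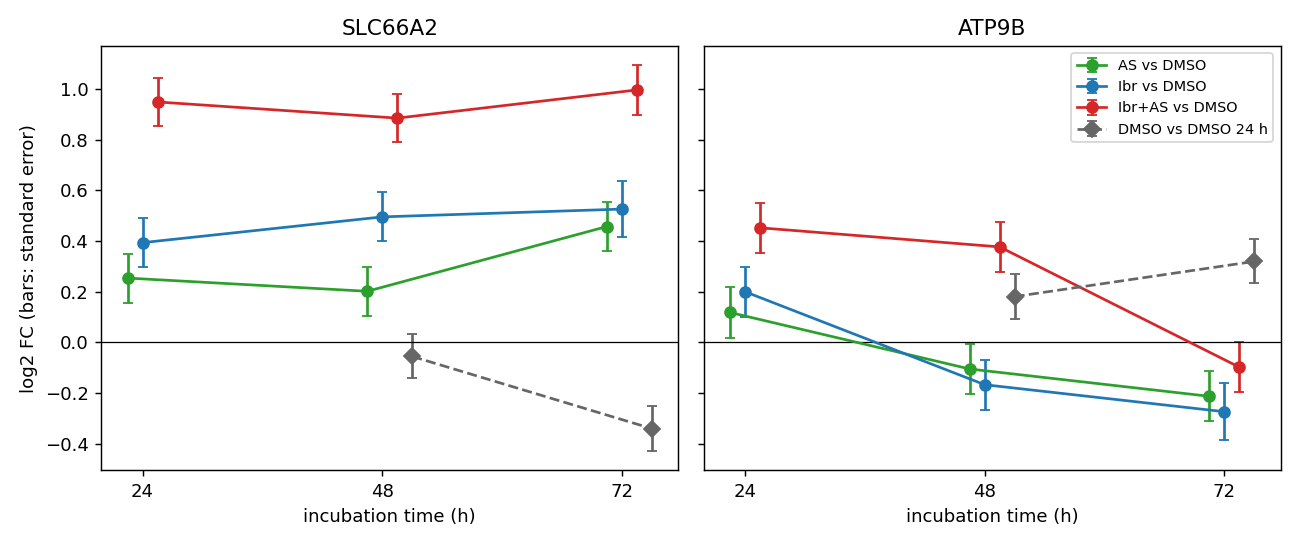
Log2 FC against DMSO of the same incubation time (vertical axis, bars are standard errors) for AS, Ibr and Ibr + AS at 24, 48 and 72 h (horizontal axis), with DMSO against DMSO 24 h in grey. For SLC66A2 all 9 values against DMSO lie above 0, with Ibr + AS between 0.89 and 1.00, and for ATP9B the values under single inhibitors pass from above 0 at 24 h to below 0 at 48 and 72 h.

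The 12 groups of ATP9B were led by Ibr + AS at 48 h (60.3 ± 2.69 CPM, n = 3) and 24 h (56.6 ± 1.03 CPM, n = 3), followed by DMSO 72 h, and DMSO 24 h stood last at 40.8 CPM. Of the 11 pairs of neighbours in the order, 9 overlapped. DMSO groups thus stood at rank 3, 6 and 12 for ATP9B, whereas for SLC66A2 they took the last 3 ranks.

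A split of the variance of log2 CPM over the 35 libraries describes the same contrast. For SLC66A2, treatment took 86.0%, incubation time 6.46%, their interaction 1.60%, passage 2.09% and the remainder 3.82%. For ATP9B, treatment took 51.0%, the interaction of treatment and time 33.9%, and the remainder 14.7%. Passage took 0.365%. The SD of what remained was 0.095 for SLC66A2 and 0.093 for ATP9B on the log2 scale, so that the libraries of a group scattered by similar amounts.

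The ratio of reads on SLC66A2 to reads on ATP9B within a library does not depend on library scaling and is used here only for differences between groups. In DMSO it went from 1.15 ± 0.055 (SD, n = 3) at 24 h through 0.983 ± 0.13 at 48 h to 0.730 ± 0.060 at 72 h. Under Ibr + AS it was 1.63 ± 0.15, 1.39 ± 0.070 and 1.56 ± 0.059 (n = 3 each). Under Ibr it was 1.32 at 24 h, 1.55 at 48 h and 1.25 at 72 h, and under AS 1.27, 1.21 and 1.16. Of the 36 libraries, the 4 with the lowest ratios, all below 1, were DMSO 48 h in passage p121 and all DMSO 72 h libraries. Since gene length is not corrected, a ratio of 1 does not stand for equal levels.

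**Figure D3:**
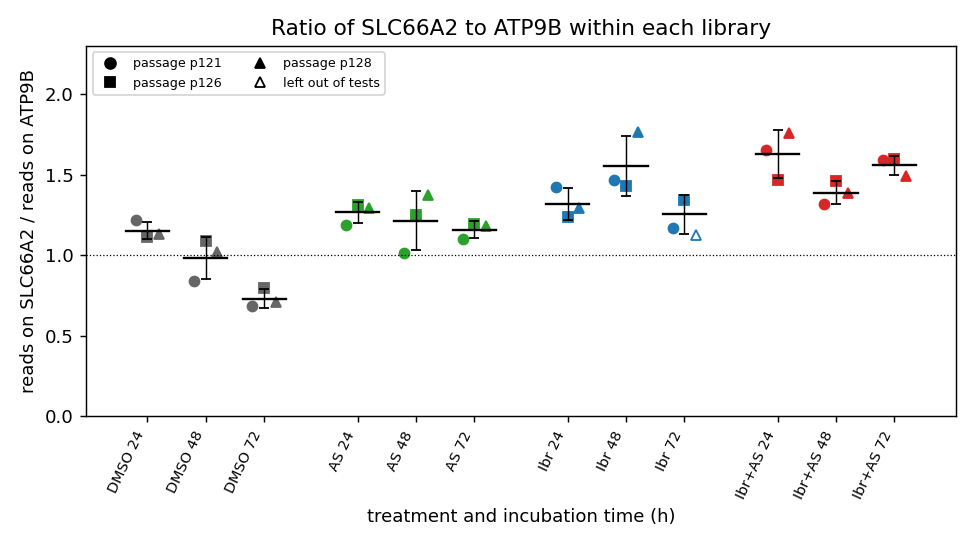
Reads on SLC66A2 divided by reads on ATP9B (vertical axis) in each library, by treatment and incubation time in hours (horizontal axis), with the mean as a line, 1 SD as a bar and a dotted line at 1. In DMSO the mean goes from 1.15 at 24 h to 0.730 at 72 h, and under Ibr + AS it stays between 1.39 and 1.63.

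Across the 35 libraries, log2 CPM of SLC66A2 and ATP9B had a Pearson r of 0.49, and after removal of group means and passage it was 0.15. These libraries share treatments, so r describes their shared course over groups and carries no test. Among the 878 genes with a symbol and a mean of at least 1 CPM, ATP9B stood at rank 185 by its r with SLC66A2. Genes most like SLC66A2 were TNFRSF13C (r = 0.96), CTDSP2, a phosphatase gene (r = 0.95), GOLM1, which encodes a Golgi membrane protein (r = 0.93), and PYM1, a gene of the exon junction complex cycle (r = 0.91). The 5 most like ATP9B were DLA88, a class I histocompatibility gene (r = 0.85), ARSA, which encodes the lysosomal arylsulfatase A (r = 0.83), DLA-DOA, a class II histocompatibility gene (r = 0.83), TAP1, a subunit of the peptide transporter for class I molecules (r = 0.82), and RHPN1 (r = 0.80).

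SLC66A2 and ATP9B lie near each other on dog chromosome 1. In RefSeq, on the UU_Cfam_GSD_1.0 assembly, which is not the assembly used for counting, 3 genes lie between them, in the order KCNG2, CTDP1 and NFATC1. In that annotation SLC66A2 overlaps KCNG2, a potassium channel gene for which no identifier was paired, and the strand setting of the counting is not given, so reads of the overlap cannot be assigned with certainty. For 7 genes around the pair, the test across all genes could be used. Under Ibr + AS against DMSO, 0 of them were higher and 1 lower at 24 h (adjusted p at most 0.05, edgeR's quasi-likelihood test). Of all genes tested, 17.1% were higher and 16.9% lower at that time. At 48 h, 0 were higher and 1 lower, beside 15.4% and 15.3% of all genes, and at 72 h, 2 were higher and 1 lower, beside 14.1% and 14.5%.

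TXNL4A, which encodes a component of the spliceosome, fell at 24 h (log2 FC -0.30 ± 0.099, adjusted p = 0.0121, edgeR) and 48 h (-0.26 ± 0.10, adjusted p = 0.0388), and these calls were lost without replicate 2 (-0.22 and -0.19) or replicate 3 (-0.19 and -0.28). The call at 48 h was also lost with RLE factors, filterByExpr, a term for the run, no replicate block or DESeq2, with log2 FC between -0.26 and -0.24. CTDP1, a phosphatase of RNA polymerase II that lies between the pair, had a log2 FC of -0.13 and -0.15 at 24 h and 48 h (adjusted p = 0.302 and 0.24, edgeR) and rose by 0.34 ± 0.092 at 72 h (adjusted p = 0.0019), a call lost without replicate 1, where the log2 FC was 0.21. NFATC1, a transcription factor of lymphocyte activation that also lies between them, had a log2 FC of 0.12 and -0.21 (adjusted p = 0.437 and 0.124, edgeR) and then fell by 0.38 on the log2 scale (adjusted p = 0.00208), a call lost without replicate 3, where the log2 FC was -0.25. MBP rose at 72 h (0.52 ± 0.11, adjusted p = 9.32e-05, edgeR), while ADNP2 and ZNF236 passed the test at none of the 3 times (adjusted p between 0.0999 and 1, edgeR). PARD6G was read at most 12 times per library. At 24 h and 48 h the log2 FC of the other 6 neighbours lay between -0.30 and 0.12, beside 0.95 and 0.89 for SLC66A2.

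**Figure D4:**
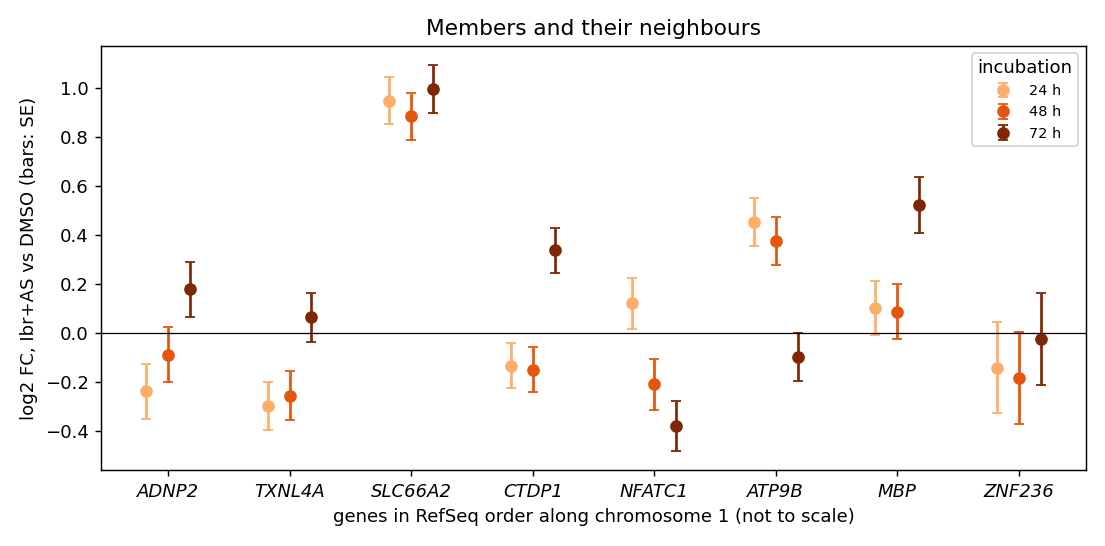
Log2 FC of Ibr + AS against DMSO (vertical axis, bars are standard errors) at 24, 48 and 72 h for SLC66A2, ATP9B and 6 neighbours, in RefSeq order along chromosome 1 and not to scale (horizontal axis). SLC66A2 lies between 0.89 and 1.00 at all times, while CTDP1 and NFATC1, which lie between it and ATP9B, run from -0.13 to 0.34 and from 0.12 to -0.38.

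In DMSO, 1 of the 7 neighbours was higher and 3 were lower at 72 h than at 24 h, beside 18.5% and 19.5% of all genes. NFATC1 rose with time (log2 FC 0.54, adjusted p = 5.62e-09, edgeR), and ATP9B was higher too. TXNL4A (-0.35, adjusted p = 0.000105, edgeR), CTDP1 (-0.37, adjusted p = 2.02e-05) and MBP (-0.39, adjusted p = 0.00041) fell, and SLC66A2 was lower as well.

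Other genes of membrane traffic were taken from 3 lists of 62 genes in all, restricted to those whose identifiers could be paired with a symbol. Under Ibr + AS, 10 of the 62 were higher and 20 lower than in DMSO at 24 h, 11 and 15 at 48 h, and 19 and 15 at 72 h. Genes with a symbol are read more than most, and among all 1068 of them 20.9% were higher and 23.1% lower at 24 h, 18.1% and 20.2% at 48 h, and 24.1% and 19.8% at 72 h. The median log2 FC of the 62 genes was -0.14, -0.09 and 0.07 at the 3 times, against 0.03, 0.01 and 0.00 over all genes tested. At 24 h the number of lower genes was 13 without replicate 1. In DMSO at 72 h against 24 h, 15 of 61 were higher and 21 lower, beside 22.9% and 31.3% of the genes with a symbol.

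For the 26 genes of endosome and Golgi trafficking, 2 were higher and 11 lower at 24 h, 3 and 9 at 48 h, and 9 and 9 at 72 h. As shares these were 7.7% and 42.3%, 11.5% and 34.6%, and 34.6% and 34.6%. Among the genes with a symbol they were 20.9% and 23.1%, 18.1% and 20.2%, and 24.1% and 19.8%. MON2, the dog gene for the yeast partner of Neo1, fell at each time, with a log2 FC of -0.30 ± 0.10 (adjusted p = 0.0151, edgeR), -0.46 ± 0.10 (adjusted p = 0.000175) and -0.58 ± 0.10 (adjusted p = 2.18e-06). Without replicate 1 the log2 FC at 24 h was -0.11 and was not called. Its mean at 48 h was 78.7 ± 6.04 CPM under Ibr + AS and 108.5 ± 0.10 CPM in DMSO (n = 3 each). LMAN1, a cargo receptor between endoplasmic reticulum and Golgi, fell by 0.67, 0.61 and 0.67 on the log2 scale, and ARFGAP3, which acts on the Golgi coat, had log2 FC of -0.15 (adjusted p = 0.319, edgeR), -0.58 and -0.98. VPS52, of the tethering complexes for transport from endosomes, rose by 0.53, 0.50 and 0.34, and GGA1, a clathrin adaptor of the trans-Golgi network, by 0.39, 0.37 and 0.49. Without replicate 3, VPS52 at 72 h (0.26) and GGA1 at 24 h (0.34) were not called.

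For the 21 genes of early and late endosomes, 3 were higher and 6 lower at 24 h, 3 and 4 at 48 h, and 4 and 5 at 72 h. CD63, a tetraspanin of late endosomes, rose by 0.53, 0.82 and 0.62 on the log2 scale, and VPS28, a subunit of the ESCRT-I sorting complex, by 0.65, 0.62 and 0.39, of which the value at 72 h was 0.24 and not called without replicate 3. STX7, a SNARE of endosome fusion, fell by 0.55, 0.55 and 0.79 on the log2 scale. IGF2R, the receptor that carries enzymes to lysosomes, had log2 FC of -0.10 (adjusted p = 0.55, edgeR), -0.39 (adjusted p = 0.000754) and -0.65 (adjusted p = 2.24e-08), and without replicate 1 the value at 48 h was -0.27 and not called.

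For the 15 lysosome genes, 5 were higher and 3 lower at 24 h, 5 and 2 at 48 h, and 6 and 1 at 72 h. SQSTM1, a receptor of autophagy, rose by 1.18, 1.10 and 0.42 on the log2 scale at the 3 times, of which the value at 72 h was 0.25 and not called without replicate 3. TFEB, the transcription factor that drives many lysosome genes, rose by 0.34 (adjusted p = 0.000885, edgeR), 0.47 (adjusted p = 6.14e-06) and 0.66 (adjusted p = 5.01e-10), and was not called at 24 h without replicate 3 (0.32). WDR7, which works with the proton pump of acidic organelles, had log2 FC of -0.49, -0.47 and -0.15 (adjusted p = 0.0116, 0.0183 and 0.573, edgeR).

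**Figure D5:**
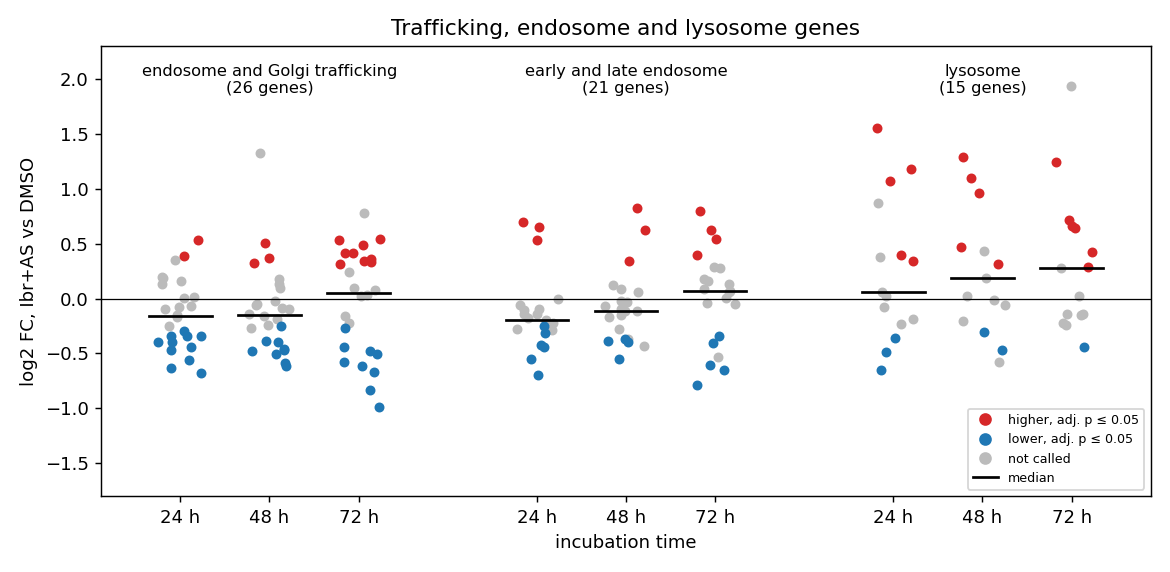
Log2 FC of Ibr + AS against DMSO (vertical axis) for each gene of 3 lists at 24, 48 and 72 h (horizontal axis); red and blue points passed an adjusted p of 0.05 in edgeR as higher and lower, grey points did not, and black lines are medians. In endosome and Golgi trafficking, 11 of 26 genes were lower and 2 higher at 24 h, and 9 were in each class at 72 h. Of the genes with a symbol, 23.1% were lower and 20.9% higher at 24 h, and 19.8% and 24.1% at 72 h.

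One further P4-ATPase gene could be looked up. ATP8B1 fell from 26.2 ± 0.53 to 8.2 ± 4.30 CPM at 24 h (log2 FC -1.69 ± 0.21, adjusted p = 4.66e-07, edgeR), from 28.2 ± 0.67 to 8.6 ± 1.24 CPM at 48 h (-1.70 ± 0.21, adjusted p = 5.23e-07) and from 38.2 ± 4.41 to 6.1 ± 1.47 CPM at 72 h (-2.65 ± 0.22, adjusted p = 5.07e-10), with n = 3 in each group. In these same comparisons the log2 FC of ATP9B was 0.45, 0.38 and -0.10. In DMSO, ATP8B1 rose between 24 h and 72 h by 0.51 on the log2 scale (adjusted p = 4.1e-07, edgeR), beside 0.32 for ATP9B.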

How the data were processed

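CLBL-1 cells of passages p121, p126 and p128 gave 36 RNA-seq libraries. The authors mapped the reads with STAR 2.7.5a to CanFam3.1 and deposited raw read counts per Ensembl gene; the strand setting is not given in the sources used here. The title of DMSO 24 h replicate 3 names another passage than its passage field, and the field (p128) was used. The 2 sequencing runs were inferred from sample-sheet numbers in the file header.

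In R 4.3.3, the 18670 genes that reached 2 reads in the 35 libraries together were analysed in edgeR 4.0.16 with TMM scaling, robust quasi-likelihood fits, passage as block and group, and Benjamini-Hochberg adjustment over all genes; DMSO over time used its 9 libraries (16468 genes). A call has an adjusted p of at most 0.05. Log2 CPM had 1 as prior count. Scripts were first tested on simulated data. Same-group libraries differed by more than sampling noise (chi-square per degree of freedom 1.87 to 26.9).

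Replicate numbers stand for shared passages in the labels. Deviations from group means had a median r of 0.093 between libraries that share a passage and of -0.035 between the others (10785 genes).

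SLC66A2, ATP9B and the gene lists were chosen with earlier results of these data known. Symbols were paired with identifiers through the study's supplementary tables (1068 genes), whose fold changes and p-values were not used. Genes were named by a rule: both genes, MON2, ATP8B1, TFEB, all locus neighbours, the 2 highest and 2 lowest log2 FC among called genes of each traffic list for Ibr + AS at 48 h (mean of at least 1 CPM), and the 5 genes of highest r with each of them. Some genes that this rule names are not reported here. Alternatives were RLE factors, filterByExpr, no filter, all 36 libraries, no replicate block, own groups only, a term for the sequencing run, 1 fit of 35 libraries for DMSO, DESeq2 1.42.0, each replicate left out, and an absolute log2 FC above 1. Scaling by library totals was used for levels only and not for a fit.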

Additional observations from a re-analysis of the deposited data

Results flagged for a closer look

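The log2 FC of ATP9B under a single inhibitor had opposite signs at different incubation times in every passage. Between 24 h and 48 h it changed by -0.22 under AS and by -0.37 under Ibr, and between 24 h and 72 h by -0.33 under AS and by -0.47 under Ibr. This difference between times was not tested, since ATP9B was chosen with its results known.

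For several other named genes the log2 FC of Ibr + AS against DMSO differed between 72 h and 24 h by the interaction contrast of the same edgeR fit. It became lower for ARFGAP3 (-0.84, adjusted p = 1.58e-06), SQSTM1 (-0.76, adjusted p = 5.09e-06), IGF2R (-0.55, adjusted p = 0.00108), NFATC1 (-0.50, adjusted p = 0.00552) and ATP8B1 (-0.96, adjusted p = 0.0242). It became higher for CTDP1 (0.47, adjusted p = 0.00273), MBP (0.42, adjusted p = 0.0398), ADNP2 (0.42, adjusted p = 0.0428), TXNL4A (0.36, adjusted p = 0.047) and TFEB (0.32, adjusted p = 0.0477). The share of all genes called in this contrast is not given here, so these calls cannot be set against it. The contrast was computed in the reported fit only and not under the alternative fits.

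The Ibr 72 h library that was left out of the tests held SLC66A2 at 53.6 CPM, above the DMSO libraries of 72 h, which reached 38.9 CPM.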

How the results depend on the processing

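The 46 log2 FC of SLC66A2 and ATP9B were recomputed under the alternative fits, which gave 494 values. Of these, 492 lay within the spread between libraries of the reported value, and the largest shift was 0.21. Without the replicate block, the log2 FC of Ibr + AS against DMSO was 0.95, 0.88 and 1.00 for SLC66A2 and 0.45, 0.38 and -0.10 for ATP9B at 24, 48 and 72 h, and leaving out the block moved no count of calls over the 62 genes by more than 1.5 times and ended 1 call of a named gene, TXNL4A at 48 h (-0.26). The departure from additivity of SLC66A2 at 48 h ran from 0.066 to 0.40 with single replicates left out, the highest without replicate 3. The sign changed in 5 values of 2 results, the departure from additivity of SLC66A2 at 72 h (0.013 in the reported fit) and ATP9B under AS at 72 h against 24 h (0.0019). The number of lower genes among the 62 at 24 h ran from 13 to 24 with single replicates left out, the lowest without replicate 1. For the other named genes, 697 values were computed for 65 results, of which 668 kept direction and side of the threshold, 18 lost the call, 2 gained it and 9 changed sign. The changes of sign all came from leaving out a replicate and concern values that had not passed the test. With single replicates left out, log2 FC of Ibr + AS against DMSO ran from -0.27 to 0.054 for ARFGAP3 at 24 h, from -0.29 to 0.077 for WDR7 at 72 h, from -0.17 to 0.0042 for ADNP2 at 48 h, from -0.0087 to 0.19 for TXNL4A at 72 h, from -0.015 to 0.24 for NFATC1 at 24 h, from -0.037 to 0.26 for MBP at 24 h, and for ZNF236 from -0.37, then called, to 0.067 at 24 h and from -0.25 to 0.10 at 72 h. The causes were not tested. With an absolute log2 FC above 1 as a further condition, 3, 2 and 1 of the 62 genes were higher and 0 were lower at each time. The share of all genes that met both conditions is not given here, so these counts cannot be set against it. Over all alternative fits the log2 FC of SLC66A2 under Ibr + AS ran from 0.91 to 1.00 at 24 h, from 0.84 to 0.92 at 48 h and from 0.94 to 1.04 at 72 h. No fit used library totals alone. CPM from library totals put SLC66A2 at 24 h at 83.9, 79.9 and 95.4 under Ibr + AS and at 47.8, 47.9 and 51.1 in DMSO. At 24 h and 48 h, for both genes, Ibr + AS and DMSO lay closer together with library totals than with TMM scaling. Without replicate 1 or 2, Ibr 72 h kept 1 library, which was assumed to vary like the other groups. Counting of reads limits the precision of a single library to between 2.84% and 4.94% for these genes.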
